A study of Mus musculus with 15 samples.

Results

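A total of 949 open chromatin regions of cultured mouse eosinophils carried both marks of an active promoter but no peak of PU.1. They were chosen by the measured BALB/c peaks among 27402 ATAC regions, each made by joining peaks of the 2 ATAC libraries that share at least 1 bp and holding a peak of both. A region was kept when it overlapped an H3K4me3 region and an H3K27ac region, each called in both BALB/c libraries of that mark, and when no peak of the single PU.1 library overlapped it. The marks alone were met by 11531 regions, so the regions without PU.1 made up 8.23% of that class and 3.46% of all open regions. The other 10582 regions of the class overlapped a PU.1 peak and serve as the comparison. "Without PU.1" therefore means only that this list holds no peak there. The name promoter-like rests on the marks: positions of gene starts on the mm9 build of these files were not used here.

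The cells were bone marrow-derived eosinophils grown for 14 days from unselected marrow progenitors. They received stem cell factor and FLT3 ligand at 100 ng/mL each, then from day 4 interleukin 5 at 10 ng/mL, in both strains. The groups used here are C57 ATAC and C57 H3K27ac (strain label BL6/57, 2 libraries each), BALB/c ATAC, H3K4me3, H3K27ac and H3K4me1 (2 libraries each), BALB/c PU.1 (1 library) and BALB/c RNA (2 libraries, for the check of cell markers). Another 6 peak lists hold PU.1 and H3K27ac of cells named Neut, mBMDM and ImmGran, 1 list per mark and cell. They come from data of other studies that the authors processed again, and the labels do not spell the names out. The labels give no age or sex of the mice. Whether the 2 libraries of a group had separate cultures is not stated, so their spread may be technical.

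PU.1, encoded by Spi1, belongs to the ETS family of transcription factors, binds DNA motifs built around GGAA, and is needed for the development of myeloid cells. It is known for opening and marking enhancers together with factors of each lineage, and it also binds many promoters. H3K4me3 marks promoters of genes in use or ready for use, H3K27ac marks active promoters and enhancers, and H3K4me1 is typical of enhancers and of the flanks of promoters. Promoters of genes that most cell types use are often open and acetylated without a factor of a single lineage.

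The eosinophil markers Prg2, Epx, Il5ra, Ccr3, Siglecf and Alox15 were all above 1 CPM (counts scaled to the library total) in both BALB/c RNA libraries, with summed levels of 10739 and 11054 CPM. All 5 neutrophil markers and 4 of 5 macrophage markers of the table passed that level too, with sums of 1816 and 1525 CPM and of 3468 and 3862 CPM, and Marco was at 0. The RNA libraries held 40306679 and 30465490 counts. The peak lists of the series held between 14992 and 62236 peaks, and the sequencing depth behind them is unknown. The share of other cells in the ATAC and ChIP libraries was not tested.

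The regions without PU.1 were narrower and had lower ATAC scores than the regions with PU.1. Their median width was 690 bp (quartiles 507 and 893 bp), against 867 bp (688 and 1075 bp) for the regions with PU.1. The score of a peak, which is the authors' own and equals 10 times its −log10 q value, had a median of 51 in ATAC replicate 1 and 51 in replicate 2 at regions without PU.1, against 87 and 92 at regions with PU.1. The median fold enrichment was 4.99 and 4.87 without PU.1, against 6.18 and 6.02 with PU.1. When only the 50% of PU.1 peaks with the higher scores counted, the difference of median widths was -82.0 bp in place of -177 bp, and that of median mean ATAC scores -20.5 in place of -38.5. The interquartile ranges of the classes overlapped in width and in both ATAC scores. A wider region has more room to overlap a peak, and these libraries took part in the choice of regions, so the values are a description without a test.

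The histone marks at these regions were lower in score but not uniformly narrower. H3K4me3 peaks overlapped 928 and 944 of the 949 regions in replicates 1 and 2, with median scores of 80.5 and 92.0, against 91.0 and 106 at regions with PU.1. H3K27ac peaks overlapped 911 and 924 of the regions, with median scores of 29.0 and 31.0, against 38.0 and 43.0 at regions with PU.1. The median width of the surrounding H3K4me3 region was 1508 bp without PU.1 and 1513 bp with PU.1. The surrounding H3K27ac region had a median of 1137 bp without PU.1 and 1306 bp with PU.1. H3K4me3 covered the whole ATAC region in 66.5% of the regions without PU.1 and in 64.2% of those with PU.1, and H3K27ac in 37.5% and 52.1%. The median gap to the next open region was 5694 bp without PU.1 and 11212 bp with PU.1.

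**Figure D1:**
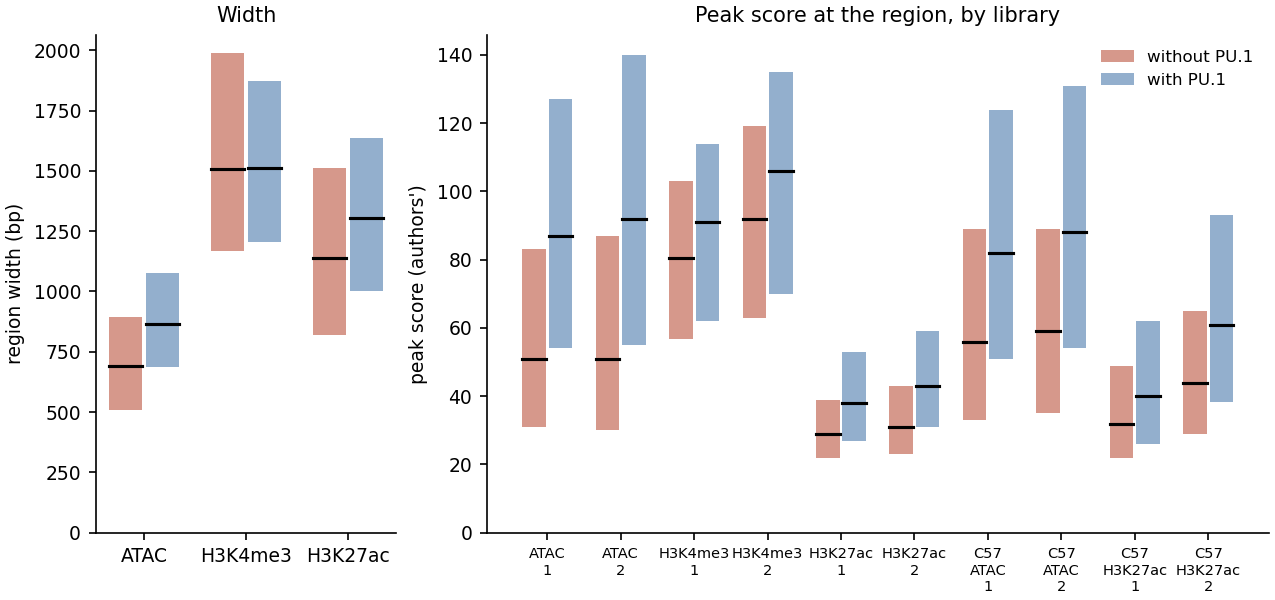
Widths in bp of the ATAC region and of the H3K4me3 and H3K27ac regions around it (left), and the authors' peak scores at the region in each of 10 libraries (right), for regions without PU.1 and with PU.1. Boxes span the quartiles and black lines are medians; ATAC medians were 690 bp without PU.1 and 867 bp with PU.1, while the H3K4me3 medians were 1508 and 1513 bp.

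The regions with the highest mean BALB/c ATAC score were strongly open in both C57 ATAC libraries too. They were picked by their BALB/c scores, so those scores are a description only. The region at chr5:136164478-136165306 (mm9, as for all positions) had ATAC scores of 194 and 361 in BALB/c and 273 and 203 in C57, and its nearest PU.1 peak lay 1511 bp away. The region at chr11:116295069-116296133 had 241 and 282 in BALB/c and 241 and 243 in C57, with the nearest PU.1 peak at 90 bp. The region at chr2:143836606-143837400 had 210 and 304 in BALB/c and 214 and 189 in C57. These 3 regions were also acetylated in both C57 libraries. The next highest, at chr2:167174544-167175316 and chr1:179371660-179372510, had mean BALB/c scores of 247.5 and 246.5. The 5 widest regions measured 1594 to 1944 bp, led by chr18:35019485-35021428, with mean BALB/c ATAC scores between 32.0 and 89.0.

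The nearest PU.1 peak lay at a median distance of 1356 bp from a region without PU.1, with quartiles of 420 and 3675 bp. Of the 949 regions, 60 (6.32%) had a PU.1 peak closer than 100 bp, 213 (22.4%) between 100 and 500 bp, 151 (15.9%) between 500 and 1000 bp, and 334 (35.2%) between 1000 and 5000 bp. A further 126 (13.3%) had it between 5000 and 20000 bp, and 65 (6.85%) beyond. Just inside the rule, the regions at chr17:29773201-29773953, chr3:97797649-97798403 and chr3:137530582-137530871 had a PU.1 peak 1, 3 and 8 bp away. Just outside it, regions at chr4:155157998-155158852, chr8:119467079-119467734 and chr18:50287626-50288356 overlapped PU.1 peaks with scores of 20, 21 and 22, where the list itself ends near a −log10 q of 2.00.

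The regions without PU.1 lay in 937 H3K4me3 regions. For 624 of them (65.8%, 95% Wilson interval 62.7 to 68.7%) the H3K4me3 region held no PU.1 peak at all, and for 325 (34.2%, 31.3 to 37.3%) it held one outside the open region. Of all 17611 H3K4me3 regions called in both libraries, 75.7% held a PU.1 peak; nothing is read from this gap, since the rule itself left out regions with a PU.1 peak. For 157 (16.5%) that H3K4me3 region also contained another open region with PU.1. The share with PU.1 in the same H3K4me3 region was 12.4% when only the 50% of PU.1 peaks with the higher scores counted, and 16.1% when regions with a PU.1 peak within 500 bp were left out. Regions in PU.1-free H3K4me3 regions had a median width of 714.5 bp inside H3K4me3 regions of 1323.5 bp, against 631 bp inside 1990 bp where the H3K4me3 region held a PU.1 peak. By chromosome, the share of the class that lacked PU.1 ran between 6.11% on chromosome 8 and 12.2% on chromosome X, leaving out unplaced sequence and Y, and this range was not tested.

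H3K4me1 was rarer at regions without PU.1 than at regions with PU.1. An H3K4me1 region called in both libraries overlapped 61 regions without PU.1 (6.43%, 5.04 to 8.17%), against 1128 with PU.1 (10.7%, 10.1 to 11.3%). The share over all 27402 open regions was 20.1%. The difference was -4.23 percentage points (95% Newcombe interval -5.75 to -2.40), with an odds ratio of 0.576 (two-sided Fisher's exact test, p adjusted by Benjamini-Hochberg over the 9 comparisons of this kind: 1.69e-05). In single libraries the shares were 9.27% and 9.48% without PU.1, against 14.4% and 14.4% with PU.1. Compared within 25 strata of ATAC width and mean score, the common odds ratio was 0.438 (0.334 to 0.575). The difference was -2.23 points when H3K4me1 had to cover 50% of the ATAC region and -2.17 with the higher-scoring 50% of H3K4me1 peaks. This test and those that follow run over regions and hold no spread between libraries, and their intervals cover counting error only.

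Most regions without PU.1 were open in C57 cells too, but fewer than among regions with PU.1. A C57 ATAC region called in both libraries overlapped 812 of 949 regions without PU.1 (85.6%, 83.2 to 87.7%), against 10269 of 10582 with PU.1 (97.0%, 96.7 to 97.3%). Over all BALB/c open regions the share was 85.5%, so the regions without PU.1 stood at that background. The difference between the classes was -11.5 points (-13.9 to -9.36, odds ratio 0.181, adjusted p = 1.39e-44, Fisher's exact test), and it was negative in both C57 libraries, with 88.2% and 89.9% without PU.1 against 97.8% and 98.2% with PU.1. It was -18.2 points without BALB/c ATAC replicate 2, -4.90 when only the 50% of eosinophil PU.1 peaks with the higher scores counted, and -25.5 when only the higher-scoring 50% of C57 ATAC peaks did. Where a C57 peak was present, its median score was 56.0 and 59.0 at regions without PU.1, against 82.0 and 88.0 at regions with PU.1.

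The regions not called in C57 lay mostly among those with the lowest ATAC scores. The class was divided into 5 bins of like size by mean BALB/c ATAC score. In bin 1, with scores of 10.5 to 45.5, 287 of 414 regions without PU.1 were open in C57 (69.3%), against 85.7% of those with PU.1. In bins 2 to 5 the shares without PU.1 were 97.2%, 98.8%, 98.1% and 100%, against 98.6%, 99.8%, 99.8% and 99.8% with PU.1. Within strata of width and score the common odds ratio was 0.458 (0.360 to 0.582). No peak of either C57 ATAC library overlapped 66 regions without PU.1 (6.95%), against 108 with PU.1 (1.02%). This share was not counted over all open regions. The 66 regions had a median width of 399.5 bp and median BALB/c ATAC scores of 24.0 and 24.5. For the 807 with a peak of each C57 library these were 723 bp, 59.0 and 60.0. Of these 66, 30 (45.5%) were still acetylated in C57, against 79.1% of the 807, a division made for regions without PU.1 only. The strongest were chr7:3750648-3751002, chr9:114652633-114652879 and chr13:24025609-24025858, with BALB/c ATAC scores of 107 and 81, 74 and 86, and 80 and 58, and all of them carried H3K27ac in C57, Neut and mBMDM.

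C57 acetylation was present at 714 regions without PU.1 (75.2%, 72.4 to 77.9%) and at 9467 with PU.1 (89.5%, 88.9 to 90.0%), counting H3K27ac regions called in both C57 libraries. The share over all open regions was 48.9%. The difference was -14.2 points (-17.1 to -11.5, odds ratio 0.358, adjusted p = 8.54e-32, Fisher's exact test) and was negative in both libraries. Its size differed between them: C57 H3K27ac replicate 1, with 14992 peaks, overlapped 70.8% without PU.1 and 88.1% with PU.1, and replicate 2, with 27527 peaks, 93.4% and 98.5%. Leaving out replicate 1 thus gave -5.16 points, and the 50% of eosinophil PU.1 peaks with the higher scores gave -8.18. Within strata of width and score the common odds ratio was 0.643 (0.542 to 0.762). The BALB/c H3K27ac score, lower at regions without PU.1, was not held alike in these strata.

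**Figure D2:**
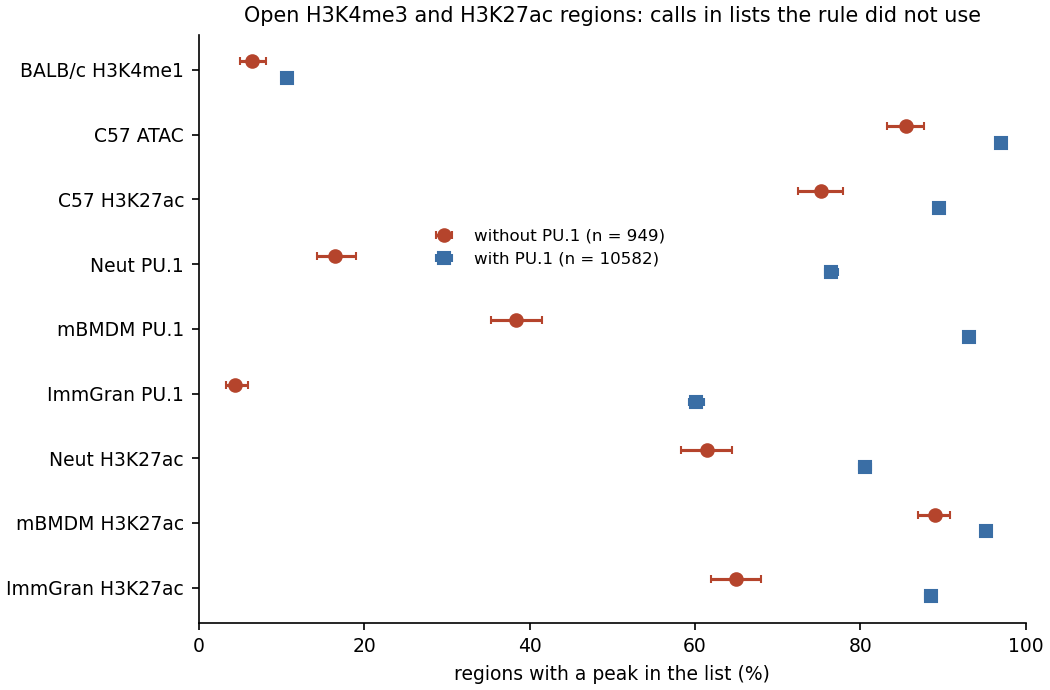
Share of regions without PU.1 (n = 949) and with PU.1 (n = 10582) that overlap a call of 9 lists the choice of regions did not use, in percent with 95% Wilson intervals. All 9 shares were lower without PU.1, with differences between -4.23 points for H3K4me1 and -59.9 points for PU.1 in Neut.

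Most of these regions held no PU.1 peak in each of the other 3 lists as well. A PU.1 peak of the Neut list overlapped 157 regions without PU.1 (16.5%, 14.3 to 19.0%), against 76.5% (75.7 to 77.3%) of the regions with PU.1. The mBMDM list, the longest with 135034 peaks, had one at 364 (38.4%, 35.3 to 41.5%), against 93.1% (92.6 to 93.6%). The ImmGran list, the shortest of the 3 with 35266 peaks, had one at 42 (4.43%, 3.29 to 5.93%), against 60.2% (59.2 to 61.1%). Over all open regions the shares were 63.6%, 76.5% and 45.6% for Neut, mBMDM and ImmGran, each above the share at regions without PU.1 in eosinophils. Of all open regions, 77.7% overlapped an eosinophil PU.1 peak, and the rule left out every such region. Nothing is therefore read from the gaps to this background. Whether open regions outside the class that also lack an eosinophil PU.1 peak have like shares was not tested. The lists differ in length and the mBMDM list has the layout of broad peaks, so their shares are not compared with each other.

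The differences were -59.9 points for Neut (-62.3 to -57.3, odds ratio 0.0610), -54.8 for mBMDM (-57.8 to -51.6, odds ratio 0.0460) and -55.7 for ImmGran (-57.2 to -54.0, odds ratio 0.0307), and each passed Fisher's exact test after adjustment. They were negative in every bin of ATAC score. In bin 1, 18.6%, 36.7% and 4.35% of the regions without PU.1 had a peak in Neut, mBMDM and ImmGran, against 71.9%, 86.3% and 53.4% of those with PU.1. In bin 5, with 54 regions without PU.1, the shares were 9.26%, 37.0% and 5.56%, against 82.3%, 96.0% and 67.6%. The common odds ratios over width and score were 0.0707, 0.0653 and 0.0357. With the 50% of eosinophil PU.1 peaks of higher score the mBMDM difference was -26.1 points. Where a peak had to cover 50% of the ATAC region, the difference was -32.5 points for Neut and -15.9 for ImmGran, and with the higher-scoring 50% of the ImmGran peaks it was -35.2.

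The PU.1 peaks that other cells did have at these regions were low in score. Their median score was 169 in Neut, 43.0 in mBMDM and 70.0 in ImmGran at regions without PU.1, against 434, 159 and 153 at regions with PU.1. The median over each whole list was 230, 76.0 and 119.

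**Figure D3:**
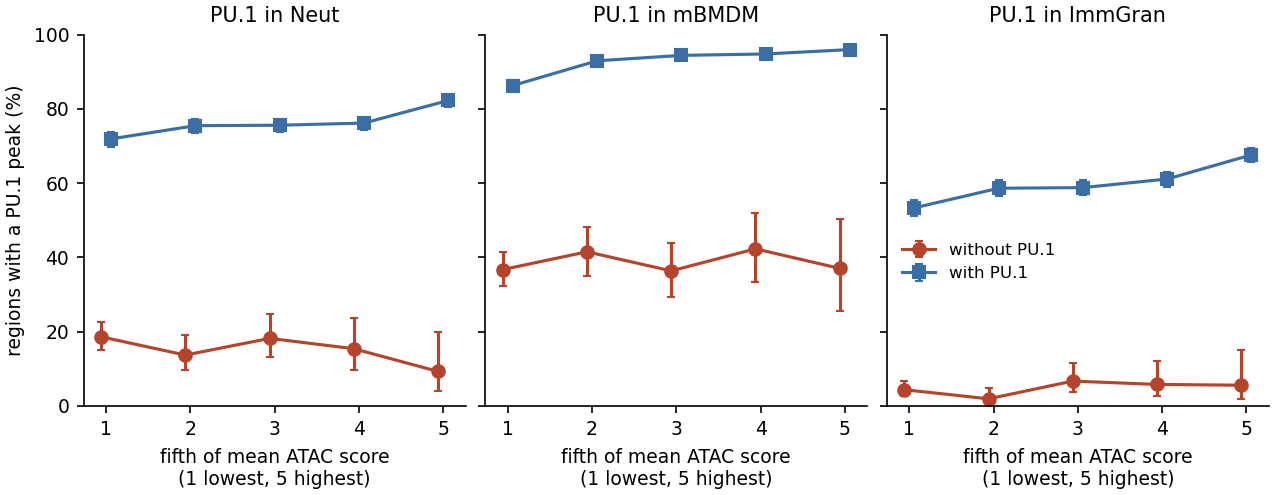
Share of regions with a PU.1 peak in the Neut, mBMDM and ImmGran lists (percent, 95% Wilson intervals), by 5 bins of the mean BALB/c ATAC score, for regions without PU.1 and with PU.1 in eosinophils. The shares without PU.1 stayed between 36.4% and 42.3% for mBMDM in all 5 bins, and those with PU.1 between 86.3% and 96.0%.

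The share of the class that lacked PU.1 was smaller at higher ATAC score and at larger width. It was 17.9%, 9.19%, 7.16%, 4.51% and 2.34% in bins 1 to 5 of ATAC score, and 16.7%, 8.98%, 6.72%, 5.03% and 3.69% in 5 like bins of rising width. The ChIP libraries, PU.1 included, were prepared by ChIPmentation, whose adapters are inserted by a transposase, an enzyme that cuts open DNA most readily. The part of open chromatin in the PU.1 calls was not tested.

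Counted over the 3 other PU.1 lists, 526 regions without PU.1 (55.4%, 52.2 to 58.6%) had a peak in none, against 536 of those with PU.1 (5.07%, 4.66 to 5.50%). A peak in all 3 was found at 20 (2.11%, 1.37 to 3.23%), against 5806 (54.9%, 53.9 to 55.8%). Over all open regions 18.4% had a peak in none and 40.7% in all 3. A peak in mBMDM alone, the longest list, was found at 249 regions without PU.1 (26.2%), against 13.6% of those with PU.1 and 14.1% of all open regions. Neut with mBMDM accounted for 87 (9.17%), against 20.1% with PU.1 and 18.5% of all open regions. Neut alone accounted for 45 (4.74%), against 1.04% and 3.39%, and ImmGran alone for 9 (0.948%), against 0.359% and 0.682%.

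The 20 regions with PU.1 in every other list but not in eosinophils included some far from any eosinophil PU.1 peak. The region at chr10:29690644-29690958 had ATAC scores of 135 and 101 in BALB/c, and PU.1 scores of 307 in Neut, 46 in mBMDM and 781 in ImmGran, and its nearest eosinophil PU.1 peak lay 73034 bp away. It was open in C57 replicate 1 only, with a score of 39, and had no C57 acetylation. The region at chr3:127912845-127913161 had ATAC scores of 104 and 120, PU.1 scores of 231, 58 and 815 in the same lists, and a nearest PU.1 peak at 245997 bp. Both were narrow, at 315 and 317 bp, and both BALB/c histone marks scored lower in replicate 2 than in replicate 1. At the chr10 region these scores were 65 and 38 for H3K4me3 and 85 and 42 for H3K27ac. At the chr3 region they were 80 and 28 for H3K4me3 and 106 and 35 for H3K27ac. Among all regions without PU.1 that had an ImmGran PU.1 peak, its median score was 70.0 and 815 was the highest. Positions prone to false signal were not filtered out here, and false signal at these 2 regions was not tested. Neither region had an H3K27ac peak in C57, Neut or ImmGran. By contrast, chr9:44127769-44128614 had PU.1 scores of 260, 264 and 68 with an eosinophil PU.1 peak 127 bp away, and its H3K27ac was called in both C57 libraries and in all 3 other lists.

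The regions with PU.1 in another list had median widths and ATAC scores close to those of the others. The 423 regions with a PU.1 peak in at least 1 other list had a median width of 705 bp and ATAC scores of 53.0 and 52.0, against 680.5 bp, 50.0 and 50.0 for the 526 with none. C57 ATAC was called at 88.2% and 83.5% of them, a difference of 4.72 points (0.212 to 9.10). C57 H3K27ac was called at 77.1% and 73.8%, where the interval of the difference, -2.24 to 8.73 points, included 0. H3K4me1 stood at 6.15% and 6.65%, with an interval of -3.63 to 2.76 points.

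**Figure D4:**
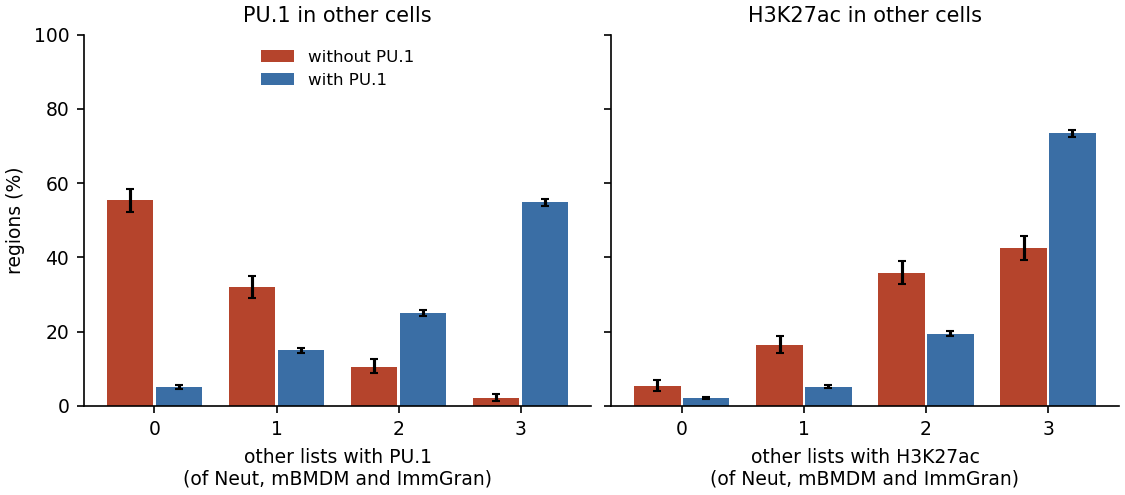
Percent of regions without PU.1 and with PU.1 in eosinophils, by the number of the Neut, mBMDM and ImmGran lists that hold a PU.1 peak (left) or an H3K27ac peak (right) there, with 95% Wilson intervals. For PU.1 the regions without it peaked at 0 lists (55.4%) and those with it at 3 (54.9%), while for H3K27ac both classes peaked at 3 lists, with 42.5% and 73.4%.

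Acetylation in other cells was common at the regions without PU.1, though less so than at the regions with PU.1. H3K27ac of mBMDM overlapped 845 of them (89.0%, 86.9 to 90.9%), against 95.2% (94.8 to 95.6%) with PU.1. H3K27ac of ImmGran overlapped 617 (65.0%, 61.9 to 68.0%), against 88.5% (87.9 to 89.1%), and H3K27ac of Neut 583 (61.4%, 58.3 to 64.5%), against 80.6% (79.8 to 81.3%). Over all open regions the shares were 68.6% for mBMDM, 54.0% for ImmGran and 51.4% for Neut. A peak in all 3 lists was found at 403 regions without PU.1 (42.5%, 39.4 to 45.6%) and at 73.4% of those with PU.1, and a peak in none at 50 (5.27%) and at 1.99%. Over all open regions these shares were 38.7% in all 3, only slightly under that without PU.1, and 24.1% in none.

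The differences were -6.19 points for mBMDM (-8.37 to -4.31, adjusted p = 3.66e-13), -23.5 for ImmGran (-26.6 to -20.4, adjusted p = 1.28e-70) and -19.1 for Neut (-22.3 to -16.0, adjusted p = 4.32e-38, Fisher's exact test, two-sided). Within strata of ATAC width and score the mBMDM difference did not pass, with a common odds ratio of 0.861 (0.682 to 1.09). The ImmGran (0.392, 0.336 to 0.457) and Neut (0.630, 0.543 to 0.731) differences did. The BALB/c H3K27ac score, lower at regions without PU.1, was not held alike in these strata. With the 50% of eosinophil PU.1 peaks of higher score the differences were -2.91 points for mBMDM and -11.8 for ImmGran. The mBMDM difference was -9.31 with BALB/c marks called in either library, -12.7 where its peaks had to cover 50% of the ATAC region, and -14.9 with the higher-scoring 50% of its list.

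Within the regions without PU.1 in eosinophils, acetylation of Neut and mBMDM was more frequent where that cell's own list had PU.1. In Neut, 128 of 157 regions with Neut PU.1 were acetylated (81.5%), against 455 of 792 without it (57.4%), a difference of 24.1 points (16.5 to 30.4). In mBMDM the shares were 96.7% of 364 and 84.3% of 585, a difference of 12.4 points (8.81 to 15.9). In ImmGran they were 69.0% of 42 and 64.8% of 907, with an interval of -11.2 to 16.5 points that included 0. The same division was not made for regions with PU.1 or for all open regions, so it is not known to be particular to these regions. ATAC width and score were not held alike in it.

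Of the regions without PU.1 in eosinophils, 169 (17.8%) had no PU.1 peak in any of the 3 other lists and H3K27ac in all 3. The same held for 214 regions with PU.1 in eosinophils (2.02%) and for 1.64% of all open regions. The rule chose regions by this same pattern in eosinophils, with H3K27ac and without PU.1, so nothing is read from these gaps. The strongest of the 169 was chr2:143836606-143837400, described above, with H3K27ac scores of 227 in Neut, 463 in mBMDM and 27 in ImmGran. The others of the 5 highest were chr3:88905739-88906216, with BALB/c ATAC scores of 232 and 261, chr10:79577972-79578703 with 214 and 271, chr19:57435087-57435753 with 198 and 279, and chr10:79515987-79517023 with 228 and 192. All 5 were open in both C57 libraries, with scores between 149 and 269. C57 H3K27ac was called at all but the first of these 4, where BALB/c H3K27ac scores were only 18 and 17. In total 324 regions without PU.1 (34.1%) were called in C57 ATAC, in C57 H3K27ac and in H3K27ac of all 3 other lists, against 7353 with PU.1 (69.5%). Over all open regions this share was 32.5%, close to that without PU.1.

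Acetylation in C57 and in Neut was less frequent the farther the region lay from an eosinophil PU.1 peak. In the bands under 500 bp, 500 to 2000 bp, 2000 to 10000 bp and beyond, with 273, 299, 259 and 118 regions, C57 H3K27ac was called at 85.0%, 80.3%, 70.3% and 50.8%. Neut H3K27ac stood at 73.3%, 71.2%, 52.9% and 28.0%. The mBMDM shares were 92.7%, 87.6%, 89.2% and 83.9%, and the ImmGran shares were 63.4%, 61.9%, 68.3% and 69.5%. C57 ATAC was called at 83.5%, 86.0%, 91.9% and 75.4%. The median ATAC scores of the bands were 48.0, 56.0, 54.0 and 40.5 in replicate 1 and 47.0, 56.0, 57.0 and 42.5 in replicate 2, and their part in these shares was not tested.

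**Figure D5:**
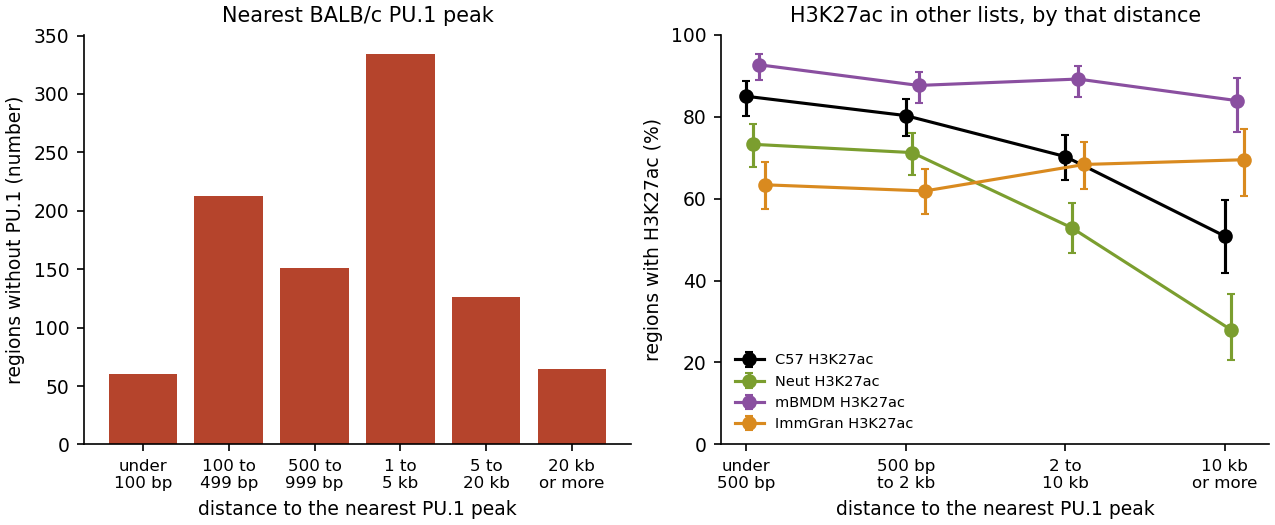
Number of regions without PU.1 by distance to the nearest BALB/c PU.1 peak (left), and the percent of them with H3K27ac in C57 (called in both libraries), Neut, mBMDM and ImmGran by bands of that distance (right, 95% Wilson intervals). The Neut share was 73.3% in the nearest band and 28.0% in the farthest, while the ImmGran shares lay between 61.9% and 69.5%.

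The regions were also divided by PU.1 in the surrounding H3K4me3 region. A PU.1 peak in the same H3K4me3 region is a near one, so this division largely repeats the bands of distance and is no separate observation. C57 H3K27ac was called at 69.1% of the 624 regions whose H3K4me3 region held no PU.1 peak, against 87.1% of the 325 whose H3K4me3 region held one, a difference of -18.0 points (-22.9 to -12.6). Neut H3K27ac stood at 53.5% and 76.6%, a difference of -23.1 points (-28.9 to -16.8). ImmGran H3K27ac differed in the opposite direction, with 67.6% and 60.0%, a difference of 7.63 points (1.22 to 14.1), and so did C57 ATAC, with 87.5% and 81.8% (5.65 points, 0.909 to 10.8). H3K4me1 stood at 7.85% and 3.69% (4.16 points, 0.922 to 7.01). The intervals for PU.1 in Neut (16.8% and 16.0%), mBMDM (40.1% and 35.1%) and ImmGran (4.17% and 4.92%), and for mBMDM H3K27ac (88.0% and 91.1%), included 0.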

How the data were processed

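ChIP and ATAC peaks came as 1 list per library. Each peak has 3 values that the authors deposited: a score, a −log10 q value and a fold enrichment. The lists have the layout of broad peaks, or of narrow peaks for PU.1 in eosinophils, Neut and ImmGran. The RNA tables deposited by the authors hold raw counts per gene. The submitters' processing notes name the mm9 build, Bowtie2 2.3.4.1, STAR 2.5, featureCounts, bedtools 2.27.0 and HOMER, with no role stated. The caller of the peaks is not given in the sources used here.

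Peaks were joined and overlapped at 1 bp, and overlapping peaks of 1 list were joined (198 in ImmGran and 905 in Neut PU.1). Shares have 95% Wilson intervals and differences Newcombe intervals; Fisher's exact test, two-sided, was adjusted over 9 comparisons, and Mantel-Haenszel odds ratios used 5 by 5 strata of ATAC width and mean score. Comparisons within the regions without PU.1 have intervals only. The functions were tested on simulated data. Named regions were the highest in ATAC score, the widest, those with PU.1 in all other lists, those without it in any, those not open in C57, and those at the edge of the rule. Regions, lists and tests were chosen with earlier results of these data known. Software was Python 3.11.15, numpy 2.4.6, pandas 2.3.3, scipy 1.17.1 and statsmodels 0.14.6. No genome or annotation of mm9 was used here, so genes and sequences are not given.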

Additional observations from a re-analysis of the deposited data

How the results depend on the processing

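In 131 of 132 recalculations of the 9 tested shares the direction and the call were those reported. The exception is the mBMDM H3K27ac share among regions of like ATAC width and score, with a common odds ratio of 0.861. The recalculations reuse largely the same lists, so they are not separate checks. A call could hold while the difference shrank. For mBMDM PU.1 it was -54.8 points, and -26.1 with the 50% of eosinophil PU.1 peaks of higher score. The number of regions without PU.1 was 3708 when only the 50% of PU.1 peaks with the higher scores counted and 625 with BALB/c peaks of −log10 q of at least 2. The difference of median widths, -177 bp, was -82.0 bp and -156 bp under these settings, and that of median ATAC scores, -38.5, was -20.5 and -33.5. The share with PU.1 in the same H3K4me3 region, 34.2%, was 12.4% under the first of these, 16.1% with no PU.1 peak within 500 bp (which removes such regions by construction), 27.9% with marks called in either library and 31.3% with marks that cover 50% of the ATAC region. Counting fewer PU.1 peaks can only raise the number of regions without PU.1, so the count of 3708 follows from that setting. The causes of the other shifts were not tested.

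Leaving out 1 library at a time gave 944 to 1202 regions without PU.1, width differences of -243 to -172 bp, ATAC score differences of -47.0 to -36.0, and PU.1 in the same H3K4me3 region at 30.1% to 43.0%. The differences lay between -18.2 and -8.30 points for C57 ATAC, -18.6 and -5.16 for C57 H3K27ac, and -5.10 and -3.78 for H3K4me1. No paired analysis was possible because the results are overlaps of peak lists, with no model over libraries that could hold a block. PU.1 rests on 1 library, so its calls have no replicate check.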
